A study of Mus musculus with 2 samples.

Results

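Th17 cells are CD4+ T cells that make interleukin 17 and interleukin 22, and they were followed here in the inflamed colon. Their members were the cells that the authors' annotation places in the Th17 subset, which is cluster 4 of their clustering, 2221 of 18860 cells (11.8%). Of these, 563 came from 9708 cells of 6 KO mice and 1658 from 9152 cells of 6 WT mice.

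Th17 cells are set up by nuclear receptors, RORα among them, and STAT3, under interleukin 6, interleukin 1 and transforming growth factor beta. Interleukin 23 sustains them through its receptor, Il23r. In the gut they guard the barrier through interleukins 17 and 22, and in colitis some of them also make interferon gamma and GM-CSF. BCL-6, a transcriptional repressor, is best known as the factor that follicular helper T cells need.

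The mice were Rag-/- recipients, which make no T or B cells of their own, and every group had colitis induced by transferred T cells. KO mice had received CD4+ T cells deficient in BCL-6, and WT mice had received T cells that the study describes as naive or as CD4+, CD45RBhigh and CD25-. How the BCL-6 deficiency was made, the sort of the BCL-6-deficient cells before transfer, the recipients' ages, the time after transfer and how many donors were used are not given in the sources used here. TCRb+CD4+ cells were sorted from each colon, tagged with 1 hashtag antibody per mouse and read as 1 pooled library of 5′ single-cell RNA-seq. The authors' other clusters held 4292 recirculating, 3855 cytotoxic, 1188 cycling and 380 regulatory cells, and 3940 and 2984 cells with only a general CD4 T cell label, called unnamed 1 and unnamed 3 here. The mouse is the replicate throughout, and donors did not enter the tests. UMIs (counted RNA molecules) of the Th17 cells were summed per mouse, and levels are given as CPM, counts scaled to the same total of UMIs in every sum.

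Th17 cells numbered 44, 88.5 and 178 in the KO mice (lowest, median, highest) and 137, 282.5 and 391 in the WT mice. They were 2.68, 5.41 and 10.8% of the CD4 T cells of a KO mouse and 9.37, 17.6 and 24.9% of those of a WT mouse, so that 1 KO mouse overlapped the WT range. These shares are given without a test, since genes that set the cluster apart also differed between genotypes. A Th17 cell held fewer UMIs in KO mice, the median per cell being 3164 ± 215 against 3465 ± 45.3 in WT mice (SD, n = 6 each, exact permutation test, adjusted p = 0.0162). Their mitochondrial share was 0.810 ± 0.0221% against 0.918 ± 0.0232% (exact permutation test, adjusted p = 0.00649). Depth moved with genotype, so the comparison of genotypes in Th17 cells was repeated with the median depth as a covariate, and losses of a call in that fit are given beside the gene. No cell barcode was shared between mice, which is fixed in advance where each barcode of 1 pooled library is given to 1 mouse.

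Bcl6 itself was measured first. It stood at 133, 182 and 247 CPM in the Th17 cells of KO mice (lowest, median, highest), against 61.2, 80.6 and 126 CPM in those of WT mice. No KO mouse overlapped a WT mouse, and the level was higher in KO mice by 1.08 ± 0.159 on the log2 scale (edgeR's quasi-likelihood test, adjusted p = 0.000171). The labels leave out which stretch of Bcl6 was removed, so this count does not check the labels, and direction is read from the authors' genotype labels. Bcl6 lies on chromosome 16, 23965052 to 23988852, minus strand (GRCm38).

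The markers of Th17 cells stood in the cluster that carries their name. Il17a averaged 1078 ± 509 CPM in Th17 cells, against 150 ± 122 CPM in cycling cells, the next highest of the 7 clusters (SD, n = 12 mice). Il22, encoding interleukin 22, averaged 2446 CPM against 354 CPM in cycling cells. Il23r averaged 53.6 ± 20.4 CPM against at most 7.98 CPM. Il17a, Il22, Il23r, Il1r1, Tmem176a and Tmem176b were higher in Th17 cells than in every other cluster in 12 of 12 mice, and Ccr6, the receptor for CCL20, in 10 of 12. Tmem176a and Tmem176b overlap each other on opposite strands of chromosome 6, so reads of the pair may be shared, the use of strand in counting not being given in the sources used here. Since the cells were clustered on these genes, all of this is a description.

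By a rule of size, the 12 genes that stood furthest above the other clusters included Il17f, Ccl20, Cxcl3, Il1r1, Il17a, Il22, Il23r, Pxdc1, Il1r2, Smox and Ramp1. Il17f, the partner of interleukin 17A, had the largest ratio, 65.0 CPM against at most 1.02 CPM elsewhere. Ccl20, a chemokine that draws CCR6-bearing cells, averaged 119.6 CPM against at most 11.1 CPM. Cxcl3, a chemokine for neutrophils, averaged 396 CPM against at most 39.8 CPM. Il1r1 and Il1r2, the signalling and the decoy receptor of interleukin 1, averaged 125 and 518 CPM, against at most 17.4 and 94.5 CPM. Ramp1, a subunit of the receptor for the neuropeptide CGRP, averaged 151 CPM against at most 32.6 CPM. At the other end, Ccl5, a chemokine of cytotoxic cells, averaged 352 CPM in Th17 cells, 522 CPM in regulatory cells, the next lowest, and 11705 CPM in cytotoxic cells. Irf1, Lgals9, Bloc1s1, Dnajb1 and Zfp36 were the other 5 genes furthest below every other cluster, at 0.626 to 0.744 of the next lowest.

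**Figure D1:**
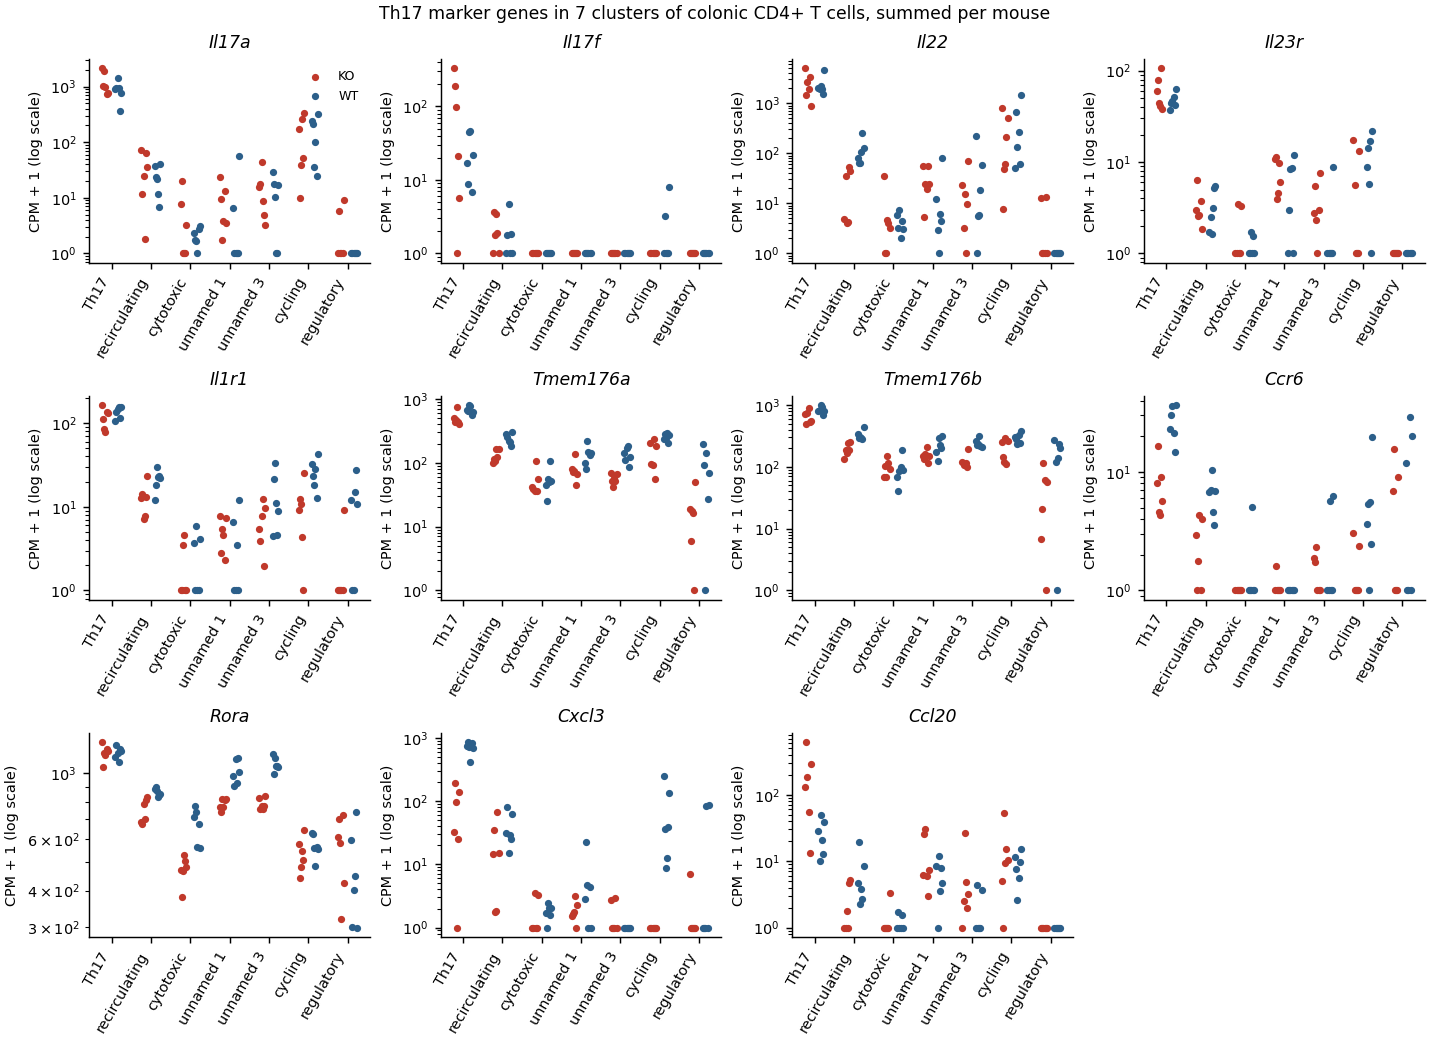
Levels of 11 Th17 genes in 7 clusters, as CPM plus 1 on a log scale, with 1 point per mouse and cluster, KO mice left of WT mice. Il17a, Il22 and Il23r were above every other cluster in 12 of 12 mice, and Cxcl3 and Ccl20 differed between genotypes in opposite directions.

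Most markers of other cell types were low. The CD8 markers summed to 0 to 4.04 CPM in KO mice and 2.23 to 11.3 CPM in WT mice, with Cd8a at 0 UMIs in KO and 4 in WT mice. Trdc, the delta chain constant segment, had 0 and 16 UMIs, and all 4 gamma delta markers summed to 68.7 to 88.9 CPM in KO mice and 47.8 to 129 CPM in WT mice. Most of that sum was Tcrg-C1, which averaged 63.3 CPM in KO and 79.0 CPM in WT mice, against at most 29.8 CPM in another cluster. Of 5 B cell markers only Igkc was in the table, at 0 CPM in every KO mouse and at most 2.32 CPM in a WT mouse, and no mast cell marker was. Of the 5 epithelial markers in the table, Epcam, Krt8, Krt19 and Lgals4 had 1 to 8 UMIs each in either genotype, whereas Krt18 had 23 in KO and 259 in WT mice. Of 8 myeloid markers 5 were in the table, and their sum was 64.7 to 148 CPM in KO mice and 50.01 to 126 CPM in WT mice, most of it Cd74. Pecam1, the only stromal marker of 3 in the table, stood at 44.5 to 76.5 CPM in KO mice and 53.3 to 80.5 CPM in WT mice. The 5 markers of NK and innate lymphoid cells in the table summed to more, 1114 to 1521 CPM in KO mice and 1026 to 1215 CPM in WT mice, nearly all of it from Il7r and Id2, which T cells also express. Klrb1c, Eomes and Kit had 6, 1 and 24 UMIs in KO and 50, 7 and 78 in WT mice. Id2, encoding an inhibitor of E proteins, was called higher, at 546 CPM in KO and 375 CPM in WT mice (adjusted p = 0.00094, edgeR; 0.0901 with depth as a covariate and 0.126 with 44 cells per mouse), and the part of such cells in the results was not tested. Of 5 T cell genes, Cd4 was called higher, at 717 CPM in KO and 470 CPM in WT mice (0.58, adjusted p = 0.000385, edgeR). The other 4 did not pass, Cd3e standing at 893 CPM in KO and 864 CPM in WT mice (adjusted p = 0.969, edgeR). Id2 and Cd4 were singled out after their values were seen.

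Letters upstream of these genes are shown for 3 of them, the genes for chemokines Cxcl3 and Ccl20, which moved in opposite directions in KO mice (below), and the gene for the interleukin 23 receptor. RefSeq's table (GRCm38.p6) gave promoters, 300 bases around the start site, for the 11 genes named, with 2 entries for Il1r1. They were searched on both strands for TAGGTCA, an element bound by RORα, TGANTCA (AP-1), TTCNNNGAA (STAT) and GGG, any 2 bases, TTTCC (NF-κB). Of 32851 promoters, 2.61% held the first, 7.81% the second, 8.30% the third and 1.63% the fourth. In the lines below, which run 5′ to 3′ on the gene's own strand, capitals mark matches to these motifs. Cxcl3 is at chr5:90785851-90786150 (plus strand), Ccl20 at chr1:83116516-83116815 (plus strand) and Il23r at chr6:67491806-67492105 (minus strand).
Cxcl3 promoter: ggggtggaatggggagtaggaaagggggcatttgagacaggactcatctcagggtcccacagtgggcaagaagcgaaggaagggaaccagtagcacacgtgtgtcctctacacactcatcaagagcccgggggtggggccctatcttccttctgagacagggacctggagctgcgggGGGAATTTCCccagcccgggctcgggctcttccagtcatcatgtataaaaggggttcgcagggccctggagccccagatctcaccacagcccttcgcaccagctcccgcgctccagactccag
Ccl20 promoter: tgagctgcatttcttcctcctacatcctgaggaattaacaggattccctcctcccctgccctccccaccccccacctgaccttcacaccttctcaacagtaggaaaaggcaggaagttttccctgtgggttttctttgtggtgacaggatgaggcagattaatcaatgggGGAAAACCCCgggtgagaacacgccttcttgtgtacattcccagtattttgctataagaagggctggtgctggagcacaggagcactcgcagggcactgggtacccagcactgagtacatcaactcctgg
Il23r promoter: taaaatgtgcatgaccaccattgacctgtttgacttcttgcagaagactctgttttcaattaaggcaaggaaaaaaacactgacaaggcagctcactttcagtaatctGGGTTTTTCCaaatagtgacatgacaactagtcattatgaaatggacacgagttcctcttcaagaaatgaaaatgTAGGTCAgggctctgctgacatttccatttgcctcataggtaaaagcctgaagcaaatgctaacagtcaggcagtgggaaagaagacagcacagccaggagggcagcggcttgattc
Cxcl3 and Ccl20 each held 1 match to the NF-κB motif, that of Ccl20 on the opposite strand. Il23r held 1 match to the NF-κB motif and 1 to TAGGTCA. Il17a held 1 AP-1 match and Il1r2 1 STAT match. Il17f, Il22, Il1r1, Pxdc1, Smox and Ramp1 held none of the 4 in these windows. A match is a matter of letters only.

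Between genotypes, 283 of 5558 genes tested in Th17 cells passed an adjusted p of 0.05 (5.09%, edgeR's quasi-likelihood test with Benjamini-Hochberg adjustment over all genes tested). Genes past this threshold are called. Of these, 140 were higher in KO mice (2.52%) and 143 lower (2.57%), and the median over all genes was 0.01 on the log2 scale. Both galectin genes named below, granzyme B and the actin-capping protein Capg rose, and chemokine Cxcl3, the integrin chain CD103 and the interleukin 1 decoy receptor fell. CPM of the genotypes did not overlap for 181 genes (3.26%), 150 of them called. With the median depth of each mouse's Th17 cells as a covariate 113 genes were called, and 88 of these were among the 283 with an unchanged sign. With 44 cells from each mouse 83 were called, and 79 of these were among the 283 with an unchanged sign. Without KO mice 1 and 2, the mice with least recirculating and cytotoxic cells, 182 of the 283 were called again, and 90 genes in all were called higher.

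Il17a, the namesake cytokine, stood at 740, 1001 and 2127 CPM in KO mice and 367, 932 and 1437 CPM in WT mice (lowest, median, highest). The ranges overlapped, and the difference of 0.46 ± 0.249 (log2, KO over WT) did not pass (adjusted p = 0.395, edgeR). Il22 stood at 891, 2255 and 4973 CPM in KO mice and 1545, 1968 and 4577 CPM in WT mice (0.06 ± 0.286, adjusted p = 0.969, edgeR). Il17f stood at 0, 58.9 and 329 CPM in KO mice and 5.92, 18.5 and 45.6 CPM in WT mice. Its log2 difference of 1.85 ± 0.659 did not pass (adjusted p = 0.132, edgeR), but did without KO mouse 4 (0.0452) or KO mouse 6 (0.0183) and without a filter on low counts (0.0278). The genotypes overlapped for all 3 interleukins.

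Cxcl3, Ccl20, Ifng and Areg, outside that trio, passed the test. Cxcl3 (chromosome 5, promoter above) stood at 0, 64.6 and 196 CPM in KO mice and 411, 731 and 848 CPM in WT mice, with 157 UMIs in KO and 4180 in WT mice. Every KO mouse was below every WT mouse, and the fall was the largest of all called genes that met the naming rule, -3.17 ± 0.326 on the log2 scale (adjusted p = 2.63e-06, edgeR). Ccl20 moved the other way, at 12.1, 157 and 612 CPM in KO mice and 8.91, 23.7 and 49.0 CPM in WT mice (2.81 ± 0.470, adjusted p = 0.000495, edgeR). KO mouse 5 lay within the WT range of Ccl20, and the other 5 KO mice lay above it. Ifng, encoding interferon gamma, stood at 321, 1069 and 1772 CPM in KO mice and 446, 501 and 826 CPM in WT mice (0.94 ± 0.205, adjusted p = 0.00579, edgeR). KO mouse 2 was the lowest of all 12 mice for Ifng, the other 5 KO mice exceeded every WT mouse, and the adjusted p was 0.0717 with the DESeq2 test and 0.0596 with 44 cells per mouse. Areg, encoding the tissue-repair factor amphiregulin, fell to 174, 381 and 447 CPM in KO mice, against 391.8, 643 and 758 CPM in WT mice, with WT mouse 6 inside the KO range (-0.83 ± 0.162, adjusted p = 0.00232, edgeR). The Areg call was lost with depth as a covariate (adjusted p = 0.182) and with 44 cells per mouse (0.0840).

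Csf2, encoding GM-CSF, averaged 646 ± 477 CPM in KO mice and 206 ± 196 CPM in WT mice (SD, n = 6 each), with overlap (1.68 ± 0.458 on the log2 scale, adjusted p = 0.0310, edgeR). Its call was lost without any 1 of KO mice 3 and 4 or WT mice 1, 2, 4, 5 and 6 (adjusted p from 0.0509 to 0.153), and with the DESeq2 test (0.166) or depth as a covariate (0.366). Il2, encoding interleukin 2, averaged 86.0 ± 124 CPM and 18.0 ± 17.9 CPM (2.22 ± 0.608, adjusted p = 0.0315, edgeR), with KO mouse 1 at 333 CPM. Its call was lost without any 1 of KO mice 1 and 6 or WT mice 1, 2, 3 and 4 (adjusted p from 0.0542 to 0.293), and with the DESeq2 test (0.217) or depth as a covariate (0.407). Of 9 cytokines and chemokines of Th17 cells tested, 3 rose (Ccl20, Csf2, Il2), 2 fell (Cxcl3, Areg) and 4 did not pass, with a median of 0.51 against 0.01 over all genes. Over all genes tested, 2.52% were called higher and 2.57% lower. This list and the later ones were chosen with earlier results of these data known, so their counts are a description. Il21 and Il10 were too sparse for the test, at 13 and 51 UMIs in KO and WT mice for Il21, and 3 and 0 for Il10.

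**Figure D2:**
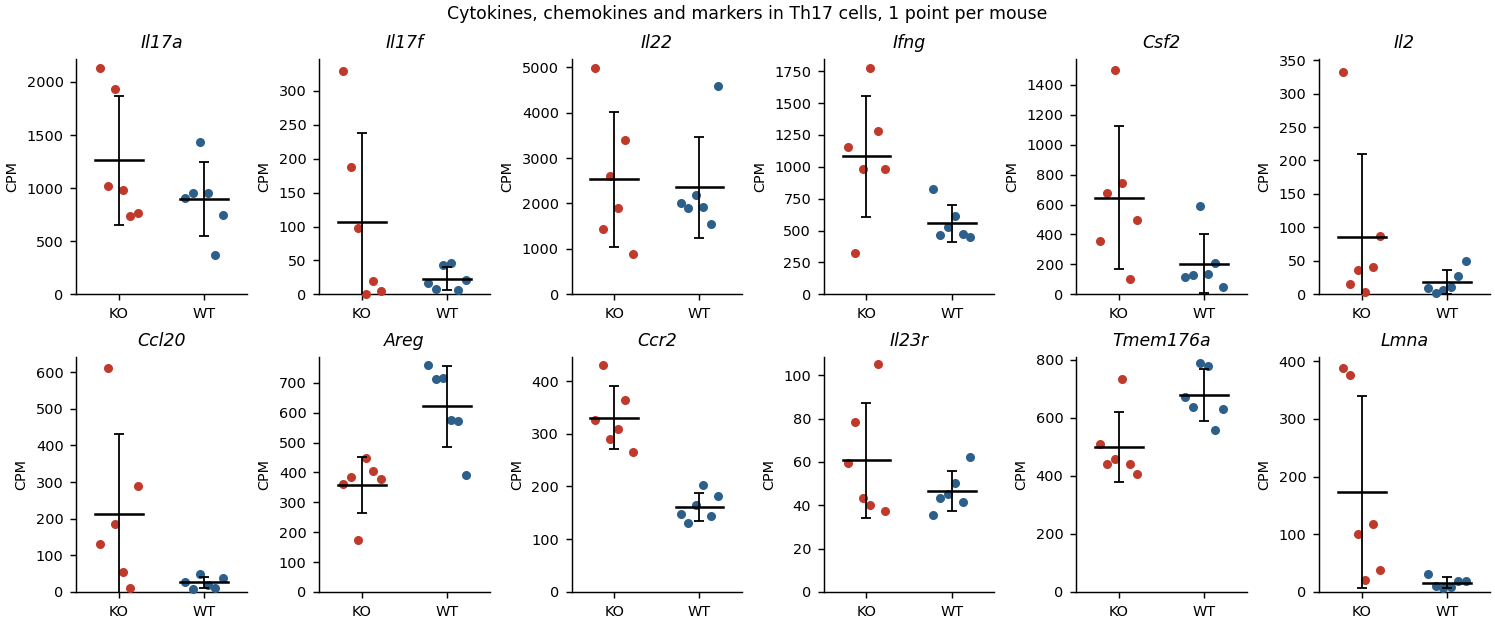
CPM of 12 cytokine, chemokine and marker genes in Th17 cells, with 1 point per mouse (KO left, WT right), a horizontal line at the mean and a bar of 1 SD (n = 6 each). Il17a, Il22 and Il23r overlap between genotypes, and 5 of 6 KO mice lie above every WT mouse for Ifng and for Ccl20.

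Rora, encoding the nuclear receptor RORα of this lineage, did not pass. Rora averaged 1175 ± 73.1 CPM in KO mice and 1173 ± 55.9 CPM in WT mice (adjusted p = 0.921, edgeR). Of the 11 transcription factors of the list, 2 rose and 1 fell, and the median was 0.01, as over all genes. Ikzf3, encoding Aiolos, rose to 168 ± 63.7 CPM, against 85.7 ± 13.1 CPM in WT mice (0.95 ± 0.185, adjusted p = 0.00209, edgeR), with overlap, and its call was lost with 44 cells per mouse (0.0791). Ahr, encoding the aryl hydrocarbon receptor, rose by 0.69 ± 0.179 (adjusted p = 0.0236, edgeR), a call lost without any 1 of KO mice 1, 2 and 5 (adjusted p from 0.0520 to 0.0934) and with depth as a covariate (0.705). Hif1a, encoding the oxygen-sensing factor, was called lower by -0.37 ± 0.102 (adjusted p = 0.0320, edgeR), a call lost without any 1 of KO mice 1, 2 and 3 or WT mice 4 and 5 (adjusted p from 0.0651 to 0.0873) and with depth as a covariate (0.643).

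Among 14 receptors and surface genes of Th17 cells, 2 rose, 2 fell and 10 did not pass (median 0.06). Ccr2, a chemokine receptor of inflammatory cells, rose to 265, 318 and 431 CPM in KO mice, against 131, 156 and 202 CPM in WT mice, with no overlap (0.94 ± 0.120, adjusted p = 3.49e-05, edgeR). Cd44, an adhesion receptor of activated T cells, rose to 353 ± 56.2 CPM, against 222 ± 19.4 CPM in WT mice (0.60 ± 0.105, adjusted p = 0.000736, edgeR; 0.198 with depth as a covariate). Il1r2 fell to 102, 307 and 464 CPM in KO mice, against 479, 720 and 998 CPM in WT mice, with no overlap (-1.21 ± 0.174, adjusted p = 0.000127, edgeR; 0.0662 with depth as a covariate). Its signalling counterpart Il1r1 averaged 116 CPM in KO mice and 135 CPM in WT mice (adjusted p = 0.492, edgeR), and Il23r averaged 60.7 ± 26.6 and 46.4 ± 9.21 CPM (adjusted p = 0.766, edgeR).

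The defining marker Tmem176a was called lower, at 498 ± 120 CPM in KO mice and 678 ± 90.5 CPM in WT mice (-0.48 ± 0.118, adjusted p = 0.0162, edgeR). The call was lost with 44 cells per mouse (0.0911), with depth as a covariate (0.0786) and without KO mice 1 and 2 (0.0571). Its neighbour Tmem176b averaged 654 ± 153 and 837 ± 105 CPM (-0.38 ± 0.115) and missed the threshold (adjusted p = 0.0587, edgeR), passing without KO mouse 4 (0.00506) or WT mouse 5 (0.0367). Ccr6 was too sparse for the test across genes, with 11 UMIs in KO and 164 in WT mice. Of 13 other genes linked to Th17 cells, 3 rose and none fell (Capg, Lgals3 and Smox, described next).

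Among genes with a standard name and an average log2 CPM of at least 5, the 12 largest rises without overlap of the genotypes were Plac8, Jaml, Lgals3, Gzmb, Smox, Lpp, Irak2, Lgals9, Sept11, Capg, Bcl6 and Gngt2, chosen for their difference between genotypes, so their separation is no separate finding. Plac8, a small cysteine-rich protein, stood at 282, 352 and 600 CPM in KO mice and 58.6, 97.4 and 141 CPM in WT mice (1.94 ± 0.180, adjusted p = 1.06e-06, edgeR). Gzmb, encoding the cytotoxic protease granzyme B, stood at 749, 1483 and 1637 CPM in KO mice and 264, 444 and 679 CPM in WT mice (1.48 ± 0.173, adjusted p = 1.12e-05, edgeR). Its differences in recirculating and cytotoxic cells, fitted apart, were 0.51 and 0.26 (adjusted p = 0.125 and 0.557, edgeR). The differences within mice between Th17 cells and those clusters, 0.84 ± 0.208 and 1.17 ± 0.250, did not pass (adjusted p = 0.183 and 0.0632, limma). Lgals3, encoding galectin 3, stood at 192, 360 and 543 CPM in KO mice and 100, 126 and 147 CPM in WT mice (1.50 ± 0.169, adjusted p = 8.00e-06, edgeR). Lgals9, encoding galectin 9, rose by 1.14 ± 0.141 on the same scale (adjusted p = 2.24e-05, edgeR).

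Smox, encoding spermine oxidase, stood at 145, 262 and 280 CPM in KO mice and 63.1, 79.7 and 142 CPM in WT mice (1.27 ± 0.190, adjusted p = 0.000182, edgeR). Irak2, a kinase of interleukin 1 receptor signalling, stood at 87.4, 169 and 243 CPM in KO mice and 51.5, 67.8 and 80.6 CPM in WT mice (1.16 ± 0.190, adjusted p = 0.000407, edgeR). Capg, an actin-capping protein, stood at 687, 749 and 1036 CPM in KO mice and 258, 350 and 460 CPM in WT mice (1.11 ± 0.125, adjusted p = 8.00e-06, edgeR). Jaml, a junctional adhesion molecule, Lpp, a LIM protein of adhesion sites, Sept11, a septin, and Gngt2, a G protein subunit, rose by 0.94 to 1.56. With depth as a covariate the calls of Jaml (adjusted p = 0.243) and Irak2 (0.215) were lost. With 44 cells per mouse 9 of the 12 were called, Smox (0.0719) and Gngt2 (0.102) were not, and the last was too sparse for that fit. All 12 stayed called in every fit that left out 1 mouse. Jaml, Lpp and Gngt2 overlap annotated genes on the opposite strand that are also in the table (Gm10684, Lppos and Abi3).

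The 12 largest falls were Cxcl3, Penk, Myo1e, Krt18, Trat1, Bcl2a1a, Cd7, Itgae, Tiam1, Il1r2, Dynlt1b and Plcb4, chosen in the same way. Trat1, an adaptor of the T cell receptor complex, fell to 53.8, 92.1 and 110 CPM in KO mice, against 206, 254 and 342 CPM in WT mice (-1.79 ± 0.185, adjusted p = 2.63e-06, edgeR). Cd7, a surface protein of T cells, fell to 13.5, 43.4 and 98.3 CPM, against 132, 144 and 214 CPM in WT mice (-1.63 ± 0.249, adjusted p = 0.000242, edgeR). Itgae, the CD103 integrin chain that binds E-cadherin on epithelium, fell to 6.73, 14.9 and 28.1 CPM, against 30.2, 47.1 and 78.2 CPM in WT mice (-1.45 ± 0.321, adjusted p = 0.00719, edgeR). Penk, which encodes the precursor of enkephalins, averaged 51.5 ± 46.5 CPM in KO mice and 295 ± 227 CPM in WT mice (-2.28 ± 0.460, adjusted p = 0.00300, edgeR), with WT mouse 3 at 743 CPM.

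Myo1e, a class I myosin, and Plcb4, a phospholipase C, fell by 2.03 and 1.16 on the log2 scale. Tiam1, an exchange factor for Rac, fell to 28.8 ± 15.4 CPM, against 79.6 ± 18.0 CPM in WT mice (-1.32 ± 0.255, adjusted p = 0.00196, edgeR). Krt18, a keratin of epithelial cells, fell to 0, 8.93 and 24.3 CPM in KO mice, against 30.2, 41.3 and 54.6 CPM in WT mice (-1.82 ± 0.342, adjusted p = 0.00157, edgeR), while its keratin partner Krt8 had 1 and 5 UMIs. The sum of the epithelial markers was 0 to 28.3 CPM in KO mice and 32.7 to 56.8 CPM in WT mice, and Krt18 was the highest of them in mean level in both genotypes. Bcl2a1a and Dynlt1b have near-identical paralogs, so their counts are uncertain, and Itgae and Il1r2 overlap Haspin and Gm16894 on the opposite strand. With depth as a covariate the calls of Penk (adjusted p = 0.471), Krt18 (0.107), Itgae (0.196), Tiam1 (0.196), Il1r2 (0.0662) and Dynlt1b (0.357) were lost. With 44 cells per mouse 5 of the 12 were called, Penk was not (adjusted p = 0.110, edgeR), and the others were too sparse for that fit. All 12 stayed called in every fit that left out 1 mouse.

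**Figure D3:**
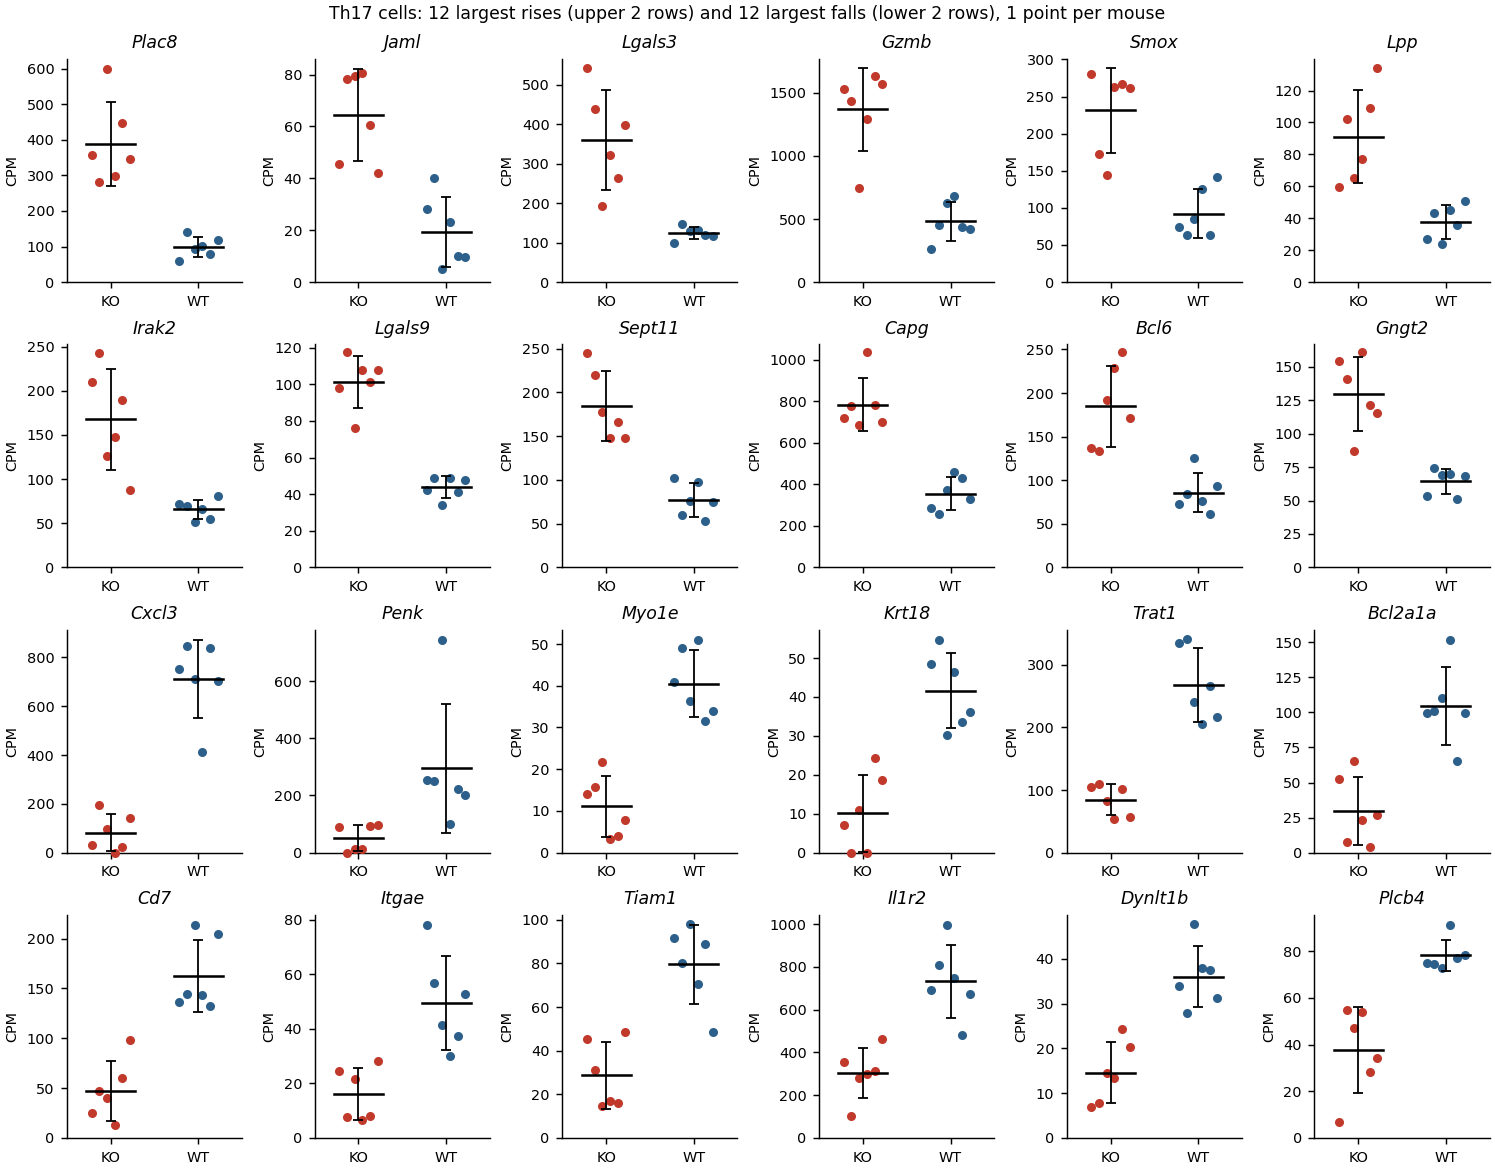
CPM in Th17 cells for the 12 largest rises (upper 2 rows) and the 12 largest falls (lower 2 rows), with 1 point per mouse, KO left of WT, a line at the mean and a bar of 1 SD (n = 6 each). The genotypes do not overlap in any panel because that was part of the rule; Cxcl3 is at 0 to 196 CPM in KO mice and 411 to 848 CPM in WT mice.

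Genes of other T cell programmes moved unevenly. The counts below stand beside 2.52% of all genes tested called higher and 2.57% called lower, and no list was tested as a set. Of 7 cytotoxic genes tested, 4 rose and none fell (median 0.42 against 0.01 over all genes). Beside Gzmb these were Srgn, the proteoglycan of secretory granules, at 4845 ± 455 CPM in KO and 3839 ± 288 CPM in WT mice (0.30 ± 0.0630, adjusted p = 0.00443, edgeR; 0.360 with depth as a covariate), Ctsw and Klrc1. The Ctsw call (0.42, adjusted p = 0.0297, edgeR) was lost without any 1 of KO mice 3, 4 and 6 or WT mice 2, 3 and 6 (0.0589 to 0.0959). That of Klrc1 (0.72, adjusted p = 0.0419, edgeR) was lost without any 1 of KO mice 1, 4 and 6 or WT mice 1, 2, 4 and 6 (0.0557 to 0.174) and with depth as a covariate (0.0577). The other 3 cytotoxic genes tested did not pass and were uneven in sign. Nkg7 leaned higher in KO mice (0.66, adjusted p = 0.0562, edgeR). Gzma and Ccl5 leaned lower (-0.84 and -0.65, adjusted p = 0.648 and 0.332, edgeR). Prf1, encoding perforin, was too sparse to be tested, at 0 and 10 UMIs. Of 11 Th1 genes Ifng alone was called, and Tbx21, encoding the Th1 factor T-bet, averaged 28.9 ± 17.9 CPM in KO and 23.5 ± 6.52 CPM in WT mice (adjusted p = 0.626, edgeR).

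Of 7 inhibitory receptors and ectoenzymes tested, 3 fell and none rose (median -0.98). Entpd1, the other gene of this list, was too sparse to be tested, with 30 UMIs in KO and 32 in WT mice. Its level went the other way, at 15.95 ± 2.95 CPM in KO and 5.46 ± 2.62 CPM in WT mice, with no overlap. Tigit, an inhibitory receptor, fell to 108, 135 and 256 CPM in KO mice, against 272, 309 and 379 CPM in WT mice (-0.98 ± 0.156, adjusted p = 0.000337, edgeR; 0.0939 with depth as a covariate). Nt5e, encoding the ectoenzyme CD73, fell to 27.1 ± 15.6 CPM, against 52.6 ± 4.39 CPM in WT mice (-1.01 ± 0.228, adjusted p = 0.00813, edgeR; 0.0672 with depth as a covariate). Cd160 was called lower (-1.14, adjusted p = 0.0261, edgeR), a call lost without KO mouse 1 (0.0770) or KO mouse 3 (0.0757) and with depth as a covariate, where the log2 difference was -0.49 (0.662). Lag3 averaged 20.8 ± 10.0 and 55.7 ± 35.7 CPM and did not pass (adjusted p = 0.110, edgeR).

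Of 5 genes of follicular helper cells tested, Bcl6 rose and 3 fell (median -0.79). Cxcr4, a chemokine receptor, fell to 41.1 ± 17.7 CPM, against 95.3 ± 17.2 CPM in WT mice (-1.09 ± 0.200, adjusted p = 0.00134, edgeR; 0.0915 with depth as a covariate). Sh2d1a, encoding the adaptor SAP, fell to 63.1 ± 26.3 CPM, against 99.2 ± 7.72 CPM in WT mice (-0.79 ± 0.178, adjusted p = 0.00791, edgeR; 0.236 with 44 cells per mouse). Tox2 was called lower (-0.83, adjusted p = 0.0341, edgeR), a call lost without any 1 of KO mice 1, 2, 3 and 4 or WT mice 1, 2 and 4 (0.0515 to 0.0899) and with depth as a covariate (0.535). Of 9 stem-like and naive-memory genes, 2 fell. Satb1, a chromatin organizer, fell to 563 ± 129 CPM, against 751 ± 67.2 CPM in WT mice (-0.49 ± 0.110, adjusted p = 0.00797, edgeR; 0.218 with 44 cells per mouse). S1pr1, the egress receptor, had 24 and 154 UMIs (-1.01, adjusted p = 0.0498, edgeR), and its call was lost without any 1 mouse other than KO mouse 5 and WT mouse 2 (0.0608 to 0.140) and with depth as a covariate (0.669). Tcf7 averaged 81.3 ± 21.5 and 85.0 ± 6.80 CPM (adjusted p = 0.609, edgeR).

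Of 8 residence and homing genes, 2 rose and 2 fell. Cd69, which retains T cells in tissue, rose to 635, 818 and 937 CPM in KO mice, against 486, 550 and 624 CPM in WT mice (0.54 ± 0.0845, adjusted p = 0.000279, edgeR). Itga4, the integrin chain that pairs with beta 7 for gut homing, fell to 88.6 ± 26.5 CPM, against 137 ± 11.3 CPM in WT mice (-0.59 ± 0.137, adjusted p = 0.0105, edgeR; 0.367 with depth as a covariate, 0.288 with 44 cells per mouse). It overlaps Cerkl on the opposite strand. Rgs1, a regulator of chemokine receptor signalling, was called higher (0.30, adjusted p = 0.0275, edgeR), and its call was lost without any 1 of KO mice 1, 2 and 5 or WT mice 2, 3 and 6 (0.0598 to 0.0870) and with depth as a covariate (0.767). Itgae was the other fall. Of 5 regulatory T cell genes, Ctla4 alone was called (-0.30, adjusted p = 0.0257, edgeR), a call lost without any 1 of KO mice 4 and 6 or WT mice 2, 4 and 6 (0.0585 to 0.0712).

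Of 16 genes of the cytoskeleton and its calcium-binding partners tested, 7 rose and none fell (median 0.16). Lmna, encoding lamin A of the nuclear envelope, stood at 20.2, 109 and 389 CPM in KO mice and 6.28, 14.4 and 31.4 CPM in WT mice (3.16 ± 0.541, adjusted p = 0.000638, edgeR; 0.390 with depth as a covariate). KO mice 1 and 2 were highest for Lmna, and KO mouse 4 alone lay within the WT range. Anxa2, an annexin, rose to 418 ± 77.2 CPM, against 238 ± 23.7 CPM in WT mice (0.76 ± 0.109, adjusted p = 0.000127, edgeR; 0.0764 with 44 cells per mouse), and Anxa1, another, to 39.9 ± 10.6 CPM, against 16.6 ± 6.75 CPM. S100a11, a calcium-binding protein, rose to 899 ± 61.9 CPM, against 633 ± 59.4 CPM in WT mice (0.48 ± 0.0755, adjusted p = 0.000336, edgeR; 0.114 with 44 cells per mouse). Crip1, a LIM protein, rose to 1157 ± 284 CPM, against 731 ± 82.5 CPM in WT mice (0.63 ± 0.117, adjusted p = 0.00141, edgeR; 0.193 with depth as a covariate). Anxa6 and Vav3, an annexin and a guanine nucleotide exchange factor, were the other rises (0.37 and 0.97). The Anxa6 call was lost with 44 cells per mouse (adjusted p = 0.197, edgeR), and that of Vav3 with depth as a covariate (0.287), without KO mouse 1 (0.0642) and without KO mice 1 and 2 (0.155).

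The lists that follow are short, and over all genes tested 2.52% were called higher and 2.57% lower. Of 14 glycolysis genes Hk2, a hexokinase, rose (1.02, adjusted p = 0.00792, edgeR), a call lost with depth as a covariate (0.805) and without KO mice 1 and 2 (0.0808). Of 8 cell cycle genes Ube2c and Cenpa were called lower (adjusted p = 0.0119 and 0.0197, edgeR). Both calls were lost with depth as a covariate (0.336 and 0.124) and without KO mice 1 and 2 (0.0543 for each), and that of Cenpa without KO mouse 4 (0.0566). Of 11 heat shock genes 3 were called lower. Hspa8, a constitutive chaperone, stood at 2181 ± 91.3 CPM in KO and 2523 ± 148 CPM in WT mice (-0.24, adjusted p = 0.0136, edgeR; 0.100 with depth as a covariate). Hsp90ab1 lost its call without WT mouse 5 (0.0585) and with depth as a covariate (0.399). Hspa1a lost it without any 1 of KO mice 1, 3, 5 and 6 or WT mice 1, 5 and 6 (0.0544 to 0.0913) and with depth as a covariate (0.311). Of 13 immediate early genes Nfkbia alone was called (0.24, adjusted p = 0.0433, edgeR), a call lost without any 1 mouse other than KO mice 1 and 2 and WT mouse 3 (0.0560 to 0.120). None of 11 cholesterol synthesis genes and none of 7 interferon-stimulated genes passed the edgeR test. Ribosomal protein genes, picked out after their values were seen, fell in 43 of 82 cases and rose in none (median -0.23), with 43 also by DESeq2 size factors, 31 with depth as a covariate and 24 with 44 cells per mouse. They took 19.1 to 21.2% of Th17 UMIs in KO mice and 22.2 to 24.6% in WT mice.

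Many of the genes called in Th17 cells were also called in other clusters of the same mice, each fitted apart with edgeR. Of the Th17 calls tested there, 151 of 278 were called in the same direction in recirculating cells, where 5.48% of all genes tested were called, and 74 of 264 in cytotoxic cells (2.89% of all genes). The counts were 107 of 267 in unnamed 1 (4.65%), 117 of 237 in unnamed 3 (8.42%) and 114 of 248 in cycling cells (5.36%). In regulatory cells, where 5 KO and 3 WT mice entered the fit, 4 of 173 were called so (0.513%). Those shared calls were 42.1% of the recirculating and 42.0% of the cytotoxic calls that were tested in Th17 cells. The opposite direction was called for 6 genes in unnamed 3, 1 in regulatory cells and none in the other 4 clusters. With depth as a covariate in the Th17 fit, 67 calls were shared with recirculating and 35 with cytotoxic cells, and with 44 Th17 cells per mouse 62 and 32. The clusters come from the same mice and were sized differently, so these counts are a description.

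Plac8 was called higher in all 6 other clusters, by 0.70 to 1.73 on the log2 scale, against 1.94 in Th17 cells. Lgals9 was called higher in 5 of them (0.47 to 1.04) but not in regulatory cells (0.27, adjusted p = 0.831, edgeR), and Capg in the same 5 (0.46 to 1.03). Trat1 and Cd7 were called lower in the 5 clusters in which they could be tested, by -0.67 to -1.62 for Trat1 and by -1.28 to -2.25 for Cd7. Of the 12 largest rises in Th17 cells, 7 were called higher in recirculating and 4 in cytotoxic cells. Of the falls, 9 of 11 tested were called lower in recirculating and 3 of 7 in cytotoxic cells.

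Differences between clusters in the size of the genotype effect were tested within each mouse against cytotoxic and recirculating cells (limma), and were not tested against the other 4 clusters. Against cytotoxic cells, 37 of 5450 genes differed (0.679%), 22 with a higher and 15 with a lower difference in Th17 cells, and 606 had an unadjusted p under 0.05. Of the 37, 14 stayed called in every fit that left out 1 mouse, and the count was 16, 18, 24 and 17 without WT mice 1, 2, 3 and 5, 57 without KO mouse 2, and 72 without KO mice 1 and 2. Lmna had a log2 difference of 3.16 in Th17 cells and 0.33 in cytotoxic cells (difference within mice 2.24 ± 0.401, adjusted p = 0.0103, limma). Ifitm3, an interferon-induced membrane protein, had 0.01 in Th17 cells and 1.83 in cytotoxic cells (-1.92 ± 0.249, adjusted p = 0.00149, limma). Itgae had -1.45 in Th17 cells and 0.12 in cytotoxic cells (-1.76 ± 0.272, adjusted p = 0.00408, limma).

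Ccr8, a chemokine receptor, averaged 60.5 ± 31.7 CPM in Th17 cells of KO mice and 125 ± 24.2 CPM in those of WT mice, a log2 difference of -1.13. In cytotoxic cells its difference was 0.87 (difference within mice -1.92 ± 0.320, adjusted p = 0.00943, limma) and in recirculating cells 0.38 (-1.59 ± 0.228, adjusted p = 0.00103, limma). Asb2, a subunit of a ubiquitin ligase, had 0.05 in Th17 cells and 1.64 in cytotoxic cells (-1.70 ± 0.284, adjusted p = 0.00943, limma). Bcl6 had 1.08 in Th17 cells, 0.54 in recirculating cells and -0.30 in cytotoxic cells. The contrast with cytotoxic cells was 1.30 ± 0.257 (adjusted p = 0.0208, limma) and was lost without any 1 of KO mouse 4 or WT mice 1, 4 and 5 (at most 0.0658). Ifng had 0.94 in Th17 cells and -0.29 in cytotoxic cells (1.12 ± 0.213, adjusted p = 0.0306, limma), lost without any 1 of WT mice 2 to 6 (at most 0.0899).

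Against recirculating cells, 13 of 5528 genes differed (0.235%), 8 higher and 5 lower, and 524 had an unadjusted p under 0.05. The count lay between 4 and 7 without any 1 of KO mice 1, 3, 4 and 5 or any 1 WT mouse, and was 18 without KO mouse 2 or KO mouse 6. Smox, Sgk1, Ccr8 and Btg1 stayed called in every fit that left out 1 mouse. Smox had 1.27 in Th17 cells and -0.16 in recirculating cells (difference within mice 1.60 ± 0.260, adjusted p = 0.00466, limma). Sgk1, a salt-sensing kinase that stabilises Il23r expression in Th17 cells, had 1.20 in Th17 cells, where it did not pass (adjusted p = 0.0549, edgeR), and -0.67 in recirculating cells (1.69 ± 0.266, adjusted p = 0.00296, limma).

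**Figure D4:**
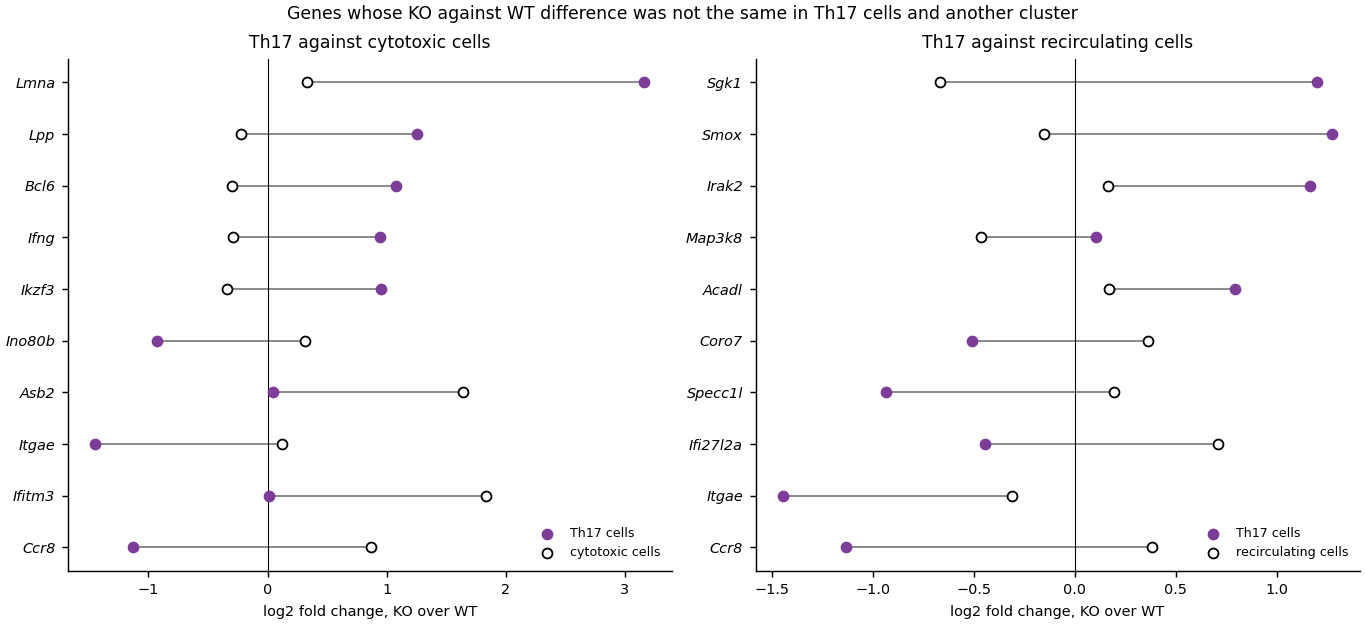
Log2 fold change of KO over WT in Th17 cells (filled) and in cytotoxic or recirculating cells (open), for the 5 largest higher and 5 largest lower contrasts that passed among genes with an average log2 CPM of at least 5 and a standard name. Itgae and Ccr8 appear on the lower side of both panels, and Lmna is on the higher side against cytotoxic cells.

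Shares of cells were counted at an even depth of 1500 UMIs per cell, at which 5 Th17 cells of KO and 10 of WT mice were too shallow to use. Of 19 shares, 4 differed. Gzmb was seen in 47.3 ± 11.2% of Th17 cells of KO mice and 21.01 ± 4.14% of those of WT mice (SD, n = 6 each, exact permutation test, two-sided, p = 0.00216, adjusted p = 0.0103). Cxcl3 was seen in 2.13 ± 1.48% and 12.1 ± 2.42% with the same p-values, 11 and 194 cells in all. Il17a and Ifng were seen together in 14.8 ± 4.61% of cells of KO mice and 6.09 ± 1.76% of those of WT mice, again with the same p-values. The share of the pair depends on the single shares, 26.8 and 18.3% for Il17a and 49.3 and 33.8% for Ifng. Whether the 2 genes met in a cell more often than those shares give was not tested. Ccr6 was seen in 1.09 ± 0.924% and 3.47 ± 0.731% of cells, with the same p-values. An exact p of 0.00216 is the smallest that 924 assignments of 12 mice can give. Unthinned, the shares were 56.0 and 29.2% for Gzmb, 2.78 and 15.4% for Cxcl3, 22.2 and 10.2% for Il17a with Ifng, and 2.25 and 7.54% for Ccr6. At 500 UMIs per cell the calls of Il17a with Ifng (adjusted exact p = 0.0823) and Ccr6 (0.182) were lost.

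The other shares did not pass. Il17a was seen in 26.8 ± 7.41% of Th17 cells of KO and 18.3 ± 3.32% of those of WT mice (adjusted exact p = 0.0881), and it passed unthinned (adjusted exact p = 0.0480) and without KO mouse 4 (0.0103). Ifng was seen in 49.3 ± 14.5% and 33.8 ± 3.61% (adjusted exact p = 0.0881), and it passed unthinned (0.0411) and without KO mouse 2 (0.00823). Csf2 was seen in 12.2 ± 3.14% and 7.72 ± 2.89% (adjusted exact p = 0.0881) and passed without WT mouse 3 (0.0411). Il22 was seen in 22.4 ± 7.23% and 25.0 ± 4.86% (adjusted exact p = 0.609). For comparison, cytotoxic cells held Il17a in 0.785 and 0.160%, Cxcl3 in 0.110 and 0.190%, and Ccr6 in 0 and 0.0482% of cells of KO and WT mice. Whether these came from free RNA was not tested. In recirculating cells the shares were higher, 2.16 and 1.63% for Il17a, 0.547 and 1.08% for Cxcl3, and 0.314 and 0.992% for Ccr6. Median depths were 2259 and 2480 UMIs in cytotoxic cells of KO and WT mice and 3161 and 3468 in Th17 cells. Gzmb, which many cytotoxic cells make, was seen in 57.8 and 49.8% of them, and in 38.8 and 26.0% of recirculating cells of KO and WT mice.

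T cell receptors, read from the same cells, gave clonotypes for 2009 Th17 cells. They fell into 978 clonotypes, of which 7 occurred in 2 or more mice when cells of all clusters were counted. The largest Th17 clone of a mouse held 5.17, 12.1 and 28.9% of its clonotyped Th17 cells in KO mice and 3.23, 8.96 and 22.0% in WT mice (lowest, median, highest). Means were 14.98 ± 9.31% and 9.89 ± 6.77% (exact permutation test, p = 0.290, adjusted p = 0.580). Clones of 2 or more Th17 cells held 51.0 ± 22.7% of cells in KO mice and 65.4 ± 13.9% in WT mice (exact permutation test, p = 0.212, adjusted p = 0.580), a share that rises with the number of cells read. At 37 cells per mouse, 26.7 ± 6.13 distinct clones were expected in KO mice and 28.5 ± 4.11 in WT mice (exact permutation test, p = 0.567, adjusted p = 0.693). These clonal measures overlapped between genotypes.

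Most Th17 cells had clone mates outside the cluster. In KO mice 75.2 ± 16.02%, and in WT mice 72.1 ± 10.8%, of clonotyped Th17 cells belonged to a clone that also held a cell of another cluster (exact permutation test, p = 0.693, adjusted p = 0.693). Pooled over mice, recirculating cells were in 78 of the 88 Th17-containing clones of 5 or more cells in KO mice. Recirculating cells were the largest other cluster over both genotypes together but not within either. In KO mice they numbered 1993, against 3170 in unnamed 1, and in WT mice 2299, against 3037 cytotoxic cells. In WT mice recirculating cells were in 151 of 171 such clones. Unnamed 1 was in 74 of the 88, and cycling cells were in 88 of the 171. By the share of Th17 cells with such partners, unnamed 1 exceeded recirculating cells in KO mice 1 (62.0 against 39.2%) and 2 (32.4 against 21.6%). In KO mouse 2 unnamed 3 was higher still (35.1%), and in KO mouse 4 unnamed 1 equalled recirculating cells (84.7%). No cluster exceeded recirculating cells in any mouse other than KO mice 1 and 2, and cluster size was not allowed for. In Th17-containing clones of 5 or more cells the median share of Th17 cells was 20% in KO mice and 40% in WT mice, and Th17 cells were at least 50% of 6 and 62 clones. Another cell of a Th17 cell's clone was itself Th17 in 9.17, 18.0 and 29.0% of pairs in KO mice and 11.2, 43.9 and 65.5% in WT mice. Set against the share of Th17 cells among all clonotyped cells of the mouse, this was 2.32 to 4.31 times that share in KO mice and 1.03 to 3.37 times in WT mice. The share of Th17 cells among clone mates averaged 18.5 ± 7.07% in KO mice and 38.9 ± 20.1% in WT mice (exact permutation test, p = 0.0455, adjusted p = 0.136), and its ratio to the Th17 share 3.24 ± 0.830 and 2.04 ± 0.886 (exact permutation test, p = 0.0433, adjusted p = 0.136). The 2 measures differed in opposite directions, and neither passed when adjusted over all 6 clonal measures. They were added after the data were seen.

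The receptors of the largest Th17 clone are shown for the 3 mice of each genotype in which that clone held the most Th17 cells, to show that the leading clones differ between mice. Each line is the junction of an alpha chain (TRA, chromosome 14) or beta chain (TRB, chromosome 6) as deposited, 5′ to 3′, and capitals mark the codon of the conserved cysteine at the start and of the phenylalanine at the end.
KO mouse 6 TRA: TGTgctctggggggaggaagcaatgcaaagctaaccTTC
KO mouse 6 TRB: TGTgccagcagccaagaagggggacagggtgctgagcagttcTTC
KO mouse 4 TRA: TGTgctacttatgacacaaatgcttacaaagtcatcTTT
KO mouse 4 TRB: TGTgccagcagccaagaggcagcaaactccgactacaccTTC
KO mouse 3 TRA: TGTgcagtgaatcacaacgtgctttacTTC
KO mouse 3 TRB: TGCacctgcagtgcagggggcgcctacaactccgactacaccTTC
WT mouse 3 TRA: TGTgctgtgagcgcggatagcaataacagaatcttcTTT
WT mouse 3 TRB: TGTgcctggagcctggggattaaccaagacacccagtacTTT
WT mouse 4 TRA: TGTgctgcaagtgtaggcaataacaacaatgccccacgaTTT
WT mouse 4 TRB: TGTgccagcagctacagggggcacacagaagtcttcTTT
WT mouse 1 TRA: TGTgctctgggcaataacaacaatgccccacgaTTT
WT mouse 1 TRB: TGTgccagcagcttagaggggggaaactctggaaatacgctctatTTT
The clone of KO mouse 6 held 43 Th17 cells among 140, with 56 recirculating and 24 cycling cells. That of KO mouse 4 held 20 among 98, and 36 of its cells lay in unnamed 1. That of KO mouse 3 held 11 among 74. That of WT mouse 3 held 41 Th17 cells among 77, that of WT mouse 4 40 among 57 and that of WT mouse 1 26 among 235, with 89 cytotoxic cells. No junction was the same in 2 of these clones.

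**Figure D5:**
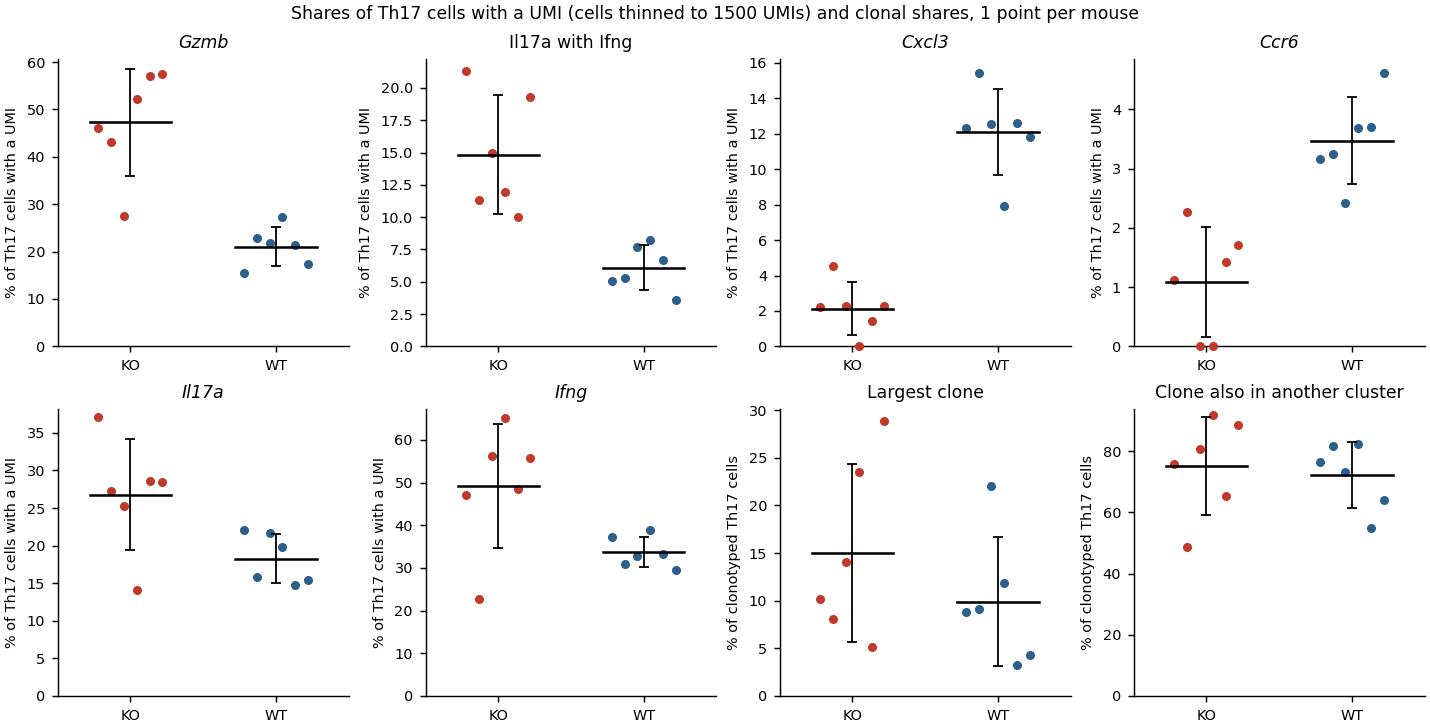
Percent of Th17 cells with at least 1 UMI of a gene or gene pair after thinning to 1500 UMIs, and 2 clonal shares, with 1 point per mouse (KO left, WT right), a line at the mean and a bar of 1 SD (n = 6 each). Gzmb, Il17a with Ifng, Cxcl3 and Ccr6 separate the genotypes, and the clonal shares overlap.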

How the data were processed

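Colonic TCRb+CD4+ T cells of 12 mice were read in 1 pooled library. The authors deposited UMI counts for 11971 genes in 18860 cells (57634998 UMIs), made with Cell Ranger 3.1.0 and Seurat 3.1.5 on GRCm38/mm10, per the submitters' processing notes, and an annotation with cluster, subset, mouse, genotype and clonotype. The mitochondrial percent and the doublet score of each cell were deposited by the authors; the doublet caller, the cell filter and the use of strand in counting are not given in the sources used here. No doublet caller was run; leaving out cells in the top of the deposited doublet score was an alternative. The deposited UMI sum matched the table in 18860 of 18860 cells.

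UMIs were summed per mouse and cluster. Genotypes were compared with edgeR 4.0.16 (quasi-likelihood, TMM, filterByExpr, Benjamini-Hochberg adjustment, threshold 0.05), in R 4.3.3. Differences between clusters within mice were tested with limma 3.58.1 (trend, robust, prior count 2). Values after ± are the SD over mice for levels and shares and the standard error for log2 differences. CPM divide by all summed UMIs. Shares and clonal measures were tested by two-sided exact permutation over 924 assignments, coded in Python 3.11.15 with numpy 2.4.6. The number 37 is that of clonotyped Th17 cells in the mouse with the fewest. P-values measure the spread between mice of 1 experiment. The scripts were tested on simulated counts.

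Alternatives were DESeq2 1.42.0 and its size factors, no filter on low counts, 44 cells per mouse, cells of 2000 or more UMIs, cells without high doublet scores, without the largest clones or without cell cycle UMIs, median depth as a covariate, each mouse left out, and, added after seeing the data, KO mice 1 and 2 left out together. Mice are numbered here within each genotype in the order of their hashtags. Named genes were the 12 largest rises and falls among calls whose genotypes did not overlap in CPM and whose average log2 CPM reached 5, markers, genes of the share tests, up to 4 called members of each of 18 gene lists, the 12 and 6 genes furthest above and below other clusters, and the 5 largest differences each way between clusters at the same minimum level; gene models that bear only an accession or a Gm or Rik name, and antigen receptor genes, were not named by these rules. Members and lists were chosen with earlier results of these data known. Of 244 list genes 241 were in the table and 179 were tested. One gene that entered the fits and counts is not reported here.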

Additional observations from a re-analysis of the deposited data

Results flagged for a closer look

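Single mice stood apart from the other 5 of their genotype, by Dixon's test at 95%, in 18 of 178 groups of Th17 values tested, where chance gives about 1 in 20. KO mouse 4 was highest for Capg (1035.7 CPM) and Tmem176a (733 CPM). KO mouse 3 was highest for Foxp3 (7.23 CPM) and Ccr8 (123 CPM) and lowest for Areg (174 CPM). KO mouse 1 was highest for Il2 (333 CPM) and Crip1 (1710.1 CPM), KO mouse 5 for Sgk1 (109 CPM) and Acadl (461 CPM), and KO mouse 6 for Hsp90ab1 (1879 CPM). WT mouse 4 was lowest for Cxcl3 (411 CPM) and highest for Plcb4 (91.3 CPM) and Tox2 (99.0 CPM). WT mouse 3 was highest for Penk (743 CPM) and Csf2 (592 CPM), and WT mouse 6 for Il22 (4577 CPM) and Foxp3 (4.86 CPM). WT mouse 2 was lowest for Anxa2 (193 CPM). Foxp3 had only 2 UMIs in KO and 9 in WT mice, so its 2 outliers rest on very few counts.

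The genotype difference in Th17 cells was set apart from that in another cluster of the same mice for the 5 largest called contrasts each way among genes with a standard name and an average log2 CPM of at least 5 (limma, log2 scale). Against cytotoxic cells it was higher for Lmna (2.24), Lpp (1.62), Bcl6 (1.30), Ifng (1.12) and Ikzf3 (1.12), and lower for Ccr8 (-1.92), Ifitm3 (-1.92), Itgae (-1.76), Asb2 (-1.70) and Ino80b (-1.60). Beyond the losses given above for Bcl6 and Ifng, calls were lost without some single mice for Lpp (WT mouse 1, adjusted p = 0.0506), Ikzf3 (WT mice 1 and 5, at most 0.05997) and Ino80b (KO mice 1, 3 and 4 and every WT mouse, at most 0.120).

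Against recirculating cells it was higher for Sgk1 (1.69), Smox (1.60), Irak2 (0.98), Map3k8 (0.64) and Acadl (0.60), and lower for Ccr8 (-1.59), Itgae (-1.33), Ifi27l2a (-1.28), Specc1l (-1.05) and Coro7 (-0.97). The calls of Map3k8, Acadl and Coro7 were lost without any 1 of KO mice 1, 3, 4 and 5 or any 1 WT mouse (adjusted p at most 0.181, 0.187 and 0.151, limma). Those of Ifi27l2a and Specc1l were lost without any 1 mouse other than KO mouse 2 (at most 0.170 and 0.192). That of Itgae was lost without any 1 of KO mice 1, 3, 4 and 5 or WT mice 1, 2, 4, 5 and 6 (at most 0.192), and that of Irak2 without any 1 of KO mice 1, 3 and 5 or WT mice 2 to 6 (at most 0.151).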

How the results depend on the processing

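Against 283 genes called in all, 83 were called with 44 cells per mouse (40 higher and 43 lower in KO mice) and 113 with median depth as a covariate (50 higher, 63 lower). Without KO mice 1 and 2, 90 were higher, and 72 genes differed from cytotoxic cells. Leaving out each mouse gave 223 to 312 calls (100 to 156 higher, 110 to 156 lower), 16 to 57 differences from cytotoxic cells and 4 to 18 from recirculating cells. The genotype difference in median genes per cell was -67.25 with all mice and did not pass (exact permutation test, adjusted p = 0.0952). Without 1 mouse it ran from -90.65 (KO mouse 6 left out, exact permutation test, adjusted p = 0.0108) to -44.85 (KO mouse 2 left out). The causes were not tested. Of 83 named genes, 70 were called. Over the 1791 alternatives in which the gene was tested 194 calls were lost, 37 of them with depth as a covariate and 27 with 44 cells per mouse, 17 were gained and 0 reversed. Fits in which a called gene was too sparse to be tested are not among those losses. The 4 clonal measures of the planned tests kept their side of the threshold in 53 alternatives; that of clones in another cluster reached -0.33 percentage points without WT mouse 5, against 3.12 with all mice. The clone mate measures, added after seeing the data, ran from -25.9 to -15.1 percentage points and from 0.979 to 1.46 without 1 mouse, and did not pass in any such fit. No paired analysis was possible because the deposited hashtag numbers of KO and WT mice do not repeat. Depth limits sparse genes such as Ccr6, with 11 UMIs in KO mice.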
